A study of Mus musculus with 8 samples.

Results

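The 10 immediate early response genes *Fos*, *Fosb*, *Jun*, *Junb*, *Egr1*, *Atf3*, *Ier2*, *Nr4a1*, *Myc* and *Maff* were described in mouse skeletal muscle with and without LSD1 in the myofibers. They were taken by symbol from a table of 27041 gene rows, in which each has 1 row. 9 of them were among the 11364 genes tested, those with a mean above 50 reads over the libraries, and *Fosb* was below that limit. The comparison asks whether their levels followed the labelled group or single libraries.

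Immediate early genes are transcribed within minutes of a stimulus, from factors already present in the cell, and most of their transcripts are short-lived. In muscle they are known to respond to contraction, stretch, injury, stress hormones and the handling of the tissue. Many encode transcription factors: Fos and Jun proteins pair to form the AP-1 complex, Atf3 binds cAMP response elements, Egr1 is a zinc finger factor, Nr4a1 an orphan nuclear receptor, Myc a factor for growth genes, and Maff a small Maf protein that lacks an activation domain. LSD1, encoded by *Kdm1a*, is a histone lysine demethylase.

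RNA-seq was performed on skeletal muscle of 9-week-old C57BL/6J mice, named as gastrocnemius of males in the study's methods. Every mouse carried LSD1 L2/L2 alleles, in which LoxP sites flank the first exon of *Kdm1a*, and the 4 Ctrl libraries came from such mice without Cre. The 2 LSD1skm-/- libraries came from mice that also carried HSA-Cre. The HSA promoter drives Cre in myofibers, so the other cells of the muscle keep LSD1. LSD1skm-/- replicates 3 and 4 were not analysed here. All the mice had chow ad libitum, and the labels give no harvest order, date or time of day. Nor do they state that each library came from its own mouse, so the p-values measure the spread between these libraries. In bulk tissue fewer cells of a type and less RNA per cell cannot be told apart.

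The libraries held between 30654828 and 41278769 counted reads, and 11.4% to 13.8% of them were mitochondrial. *Kdm1a* had 793, 713, 968 and 160 reads in Ctrl replicates 1 to 4, and 94 and 131 reads in the LSD1skm-/- libraries. The library labelled Ctrl replicate 4 thus went against its label, since its level was 3.66 in TMM-normalized CPM, the read count relative to library size that is used throughout. Ctrl replicates 1 to 3 had 22.0 to 28.1 CPM and LSD1skm-/- 2.96 to 3.48 CPM. Each group comparison below was therefore fitted with all 6 libraries and again without this one, the fit of 5 libraries. The summed level of 10 myofiber genes was 192300 to 222700 CPM in Ctrl and 187400 to 196500 in LSD1skm-/-, so the defining genes of the labelled tissue were abundant in every library. The library labelled Ctrl replicate 4 also held the highest fibroblast marker sum of the Ctrl libraries, 786 CPM against 515 to 553. *Ptprc*, a gene of white blood cells, had 9.43 and 7.86 CPM in Ctrl replicates 1 and 2 and 1.10 to 2.31 CPM in the remaining libraries.

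Proximal promoters were available for 7 of the 10 members, with 9 start sites, and the 250 bases before each start were read from RefSeq on GRCm38.p6. They are shown for *Fos*, whose level varied most between libraries, and for *Jun* and *Atf3*, the members past the threshold of 0.05 before adjustment. The *Fos* stretch is chr12:85473640-85473889 on the plus strand, the *Jun* stretch chr4:95052223-95052472 on the minus strand and the *Atf3* stretch chr1:191183334-191183583 on the minus strand. The genes themselves span chr12:85473890-85477273, chr4:95049034-95052222 and chr1:191170296-191218039 in the GENCODE annotation of GRCm38. All 3 stretches lie directly upstream of a transcription start, and that of *Atf3* is an internal start of its longest gene model. Capitals mark the core of a cAMP response element (TGACG on either strand), the TATA box (TATAAA on either strand) and the core of a heat shock element (GAA, any 2 bases, then TTC).
Fos: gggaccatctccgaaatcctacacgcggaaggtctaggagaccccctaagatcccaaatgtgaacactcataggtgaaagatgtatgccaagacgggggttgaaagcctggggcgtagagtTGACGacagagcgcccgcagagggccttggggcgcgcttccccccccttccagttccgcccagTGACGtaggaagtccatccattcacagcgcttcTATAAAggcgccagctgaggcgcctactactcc
Jun: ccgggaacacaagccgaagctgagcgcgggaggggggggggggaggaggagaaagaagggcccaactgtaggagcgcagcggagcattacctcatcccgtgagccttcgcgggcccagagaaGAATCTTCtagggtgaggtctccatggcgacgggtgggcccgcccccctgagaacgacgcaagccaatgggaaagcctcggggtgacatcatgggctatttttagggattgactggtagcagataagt
Atf3: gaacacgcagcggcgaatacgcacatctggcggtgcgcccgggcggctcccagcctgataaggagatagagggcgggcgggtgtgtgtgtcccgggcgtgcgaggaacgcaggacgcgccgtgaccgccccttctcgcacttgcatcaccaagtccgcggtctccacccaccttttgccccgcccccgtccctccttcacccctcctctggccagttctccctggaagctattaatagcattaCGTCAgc
The cAMP response element core occurred in *Fos* at -129 to -125 and at -66 to -62 from the start, and in *Atf3* at -7 to -3. 6 of the 7 members with a promoter held this core at 1 start site or more, *Jun* being the exception. Over all 32851 promoters of the same length 17.8% held it. That share counts single promoters, whereas a member such as *Maff* has more than 1. The TATA box of *Fos* lay at -33 to -28, and 12.4% of the promoters had such letters. *Jun* held a heat shock element core at -128 to -121, found in 6.69% of promoters. A match of letters is a description and no evidence of binding.

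*Fos*, the AP-1 partner that is nearly silent in resting tissue, had 3.65, 43.3, 5.04 and 47.9 CPM in Ctrl replicates 1 to 4 and 22.6 and 2.71 CPM in LSD1skm-/- replicates 1 and 2. Ctrl replicates 2 and 4 and LSD1skm-/- replicate 1 were high, the other 3 libraries were low, and the groups overlapped, with LSD1skm-/- replicate 2 just below the lowest Ctrl library. The highest level was 17.7 times the lowest. Within Ctrl alone the ratio was 13.1, and LSD1skm-/- replicate 1 was 8.33 times replicate 2. The group means were 25.0 ± 23.9 CPM (SD, n = 4) and 12.7 ± 14.1 CPM (SD, n = 2). The log2 fold change of LSD1skm-/- over Ctrl was -0.99 ± 1.2 (SE), with an adjusted p = 0.796 (edgeR quasi-likelihood test, Benjamini-Hochberg). In the fit of 5 libraries it was -0.46 ± 1.16, adjusted p = 0.863 by that edgeR test. The labelled group accounted for 5.36% of the variation in log2 CPM between libraries, against a median of 19.4% over all tested genes. Without the library labelled Ctrl replicate 4 these shares were 0.575% and 33%.

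*Fosb*, a close relative of *Fos* in the AP-1 complex, had 7, 21, 17 and 32 reads in Ctrl replicates 1 to 4 and 17 and 7 reads in LSD1skm-/-. These are 0.186 to 0.732 CPM, and the groups overlapped. It was too low to be tested. Its lowest libraries were Ctrl replicate 1 and LSD1skm-/- replicate 2, the libraries in which *Fos* was lowest as well.

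*Egr1*, a zinc finger factor induced by serum and contraction, ordered the libraries much as *Fos* did. It had 3.62, 23.7, 4.38 and 25.3 CPM in Ctrl replicates 1 to 4 and 12.9 and 4.12 CPM in LSD1skm-/-. Again Ctrl replicates 2 and 4 and LSD1skm-/- replicate 1 were the high libraries, and the groups overlapped. The highest level was 7.0 times the lowest within Ctrl, and LSD1skm-/- replicate 1 was 3.13 times replicate 2. The log2 fold change was -0.75 ± 0.88 (edgeR quasi-likelihood test, Benjamini-Hochberg adjusted p = 0.79), and the labelled group accounted for 3.03% of the variation, or 0.00373% without the library labelled Ctrl replicate 4.

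**Figure D1:**
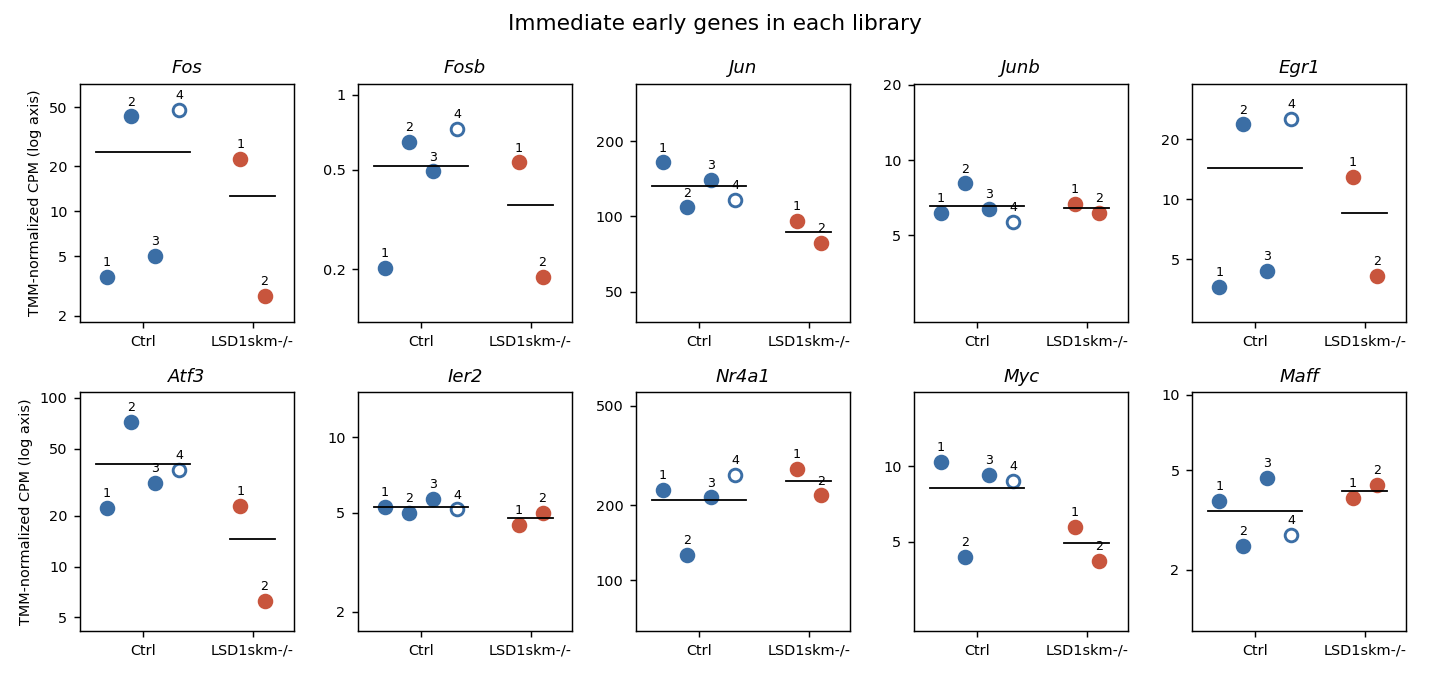
Level of each of the 10 immediate early genes in TMM-normalized CPM (log axis, with its own range in each panel), 1 point a library with its replicate number, Ctrl in blue, LSD1skm-/- in red, the library labelled Ctrl replicate 4 as an open point, and a line at each group mean. *Fos* and *Egr1* are high in Ctrl replicates 2 and 4 and LSD1skm-/- replicate 1, *Jun* is below every Ctrl library in both LSD1skm-/- libraries, and *Junb* and *Ier2* are nearly level.

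*Atf3*, a stress-induced repressor that binds cAMP response elements, did not order the libraries as *Fos* did. Its level was 22.3, 71.8, 31.4 and 37.4 CPM in Ctrl replicates 1 to 4 and 22.8 and 6.25 CPM in LSD1skm-/-. LSD1skm-/- replicate 2 was the lowest and Ctrl replicate 2 the highest, while LSD1skm-/- replicate 1 was level with Ctrl replicate 1, so that the groups overlapped. The means were 40.7 ± 21.7 CPM (SD, n = 4) and 14.5 ± 11.7 CPM (SD, n = 2). The log2 fold change was -1.49 ± 0.61 (edgeR quasi-likelihood test, Benjamini-Hochberg adjusted p = 0.557). It passed the threshold of 0.05 before adjustment and did not pass after it. Leaving out LSD1skm-/- replicate 2 gave a log2 fold change of -0.84 and leaving out Ctrl replicate 2 gave -1.07, neither of which passed even before adjustment. The spread inside each group was 3.23-fold in Ctrl and 3.65-fold in LSD1skm-/-.

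*Jun*, the other partner of AP-1, was the 1 tested member whose libraries separated by their labels. It had 164, 109, 140 and 116 CPM in Ctrl replicates 1 to 4 and 96.0 and 78.1 CPM in LSD1skm-/-. Both LSD1skm-/- libraries lay below every Ctrl library, and the library labelled Ctrl replicate 4 lay above Ctrl replicate 2, although its *Kdm1a* was at the LSD1skm-/- level. The means were 132 ± 25.2 CPM (SD, n = 4) and 87.0 ± 12.7 CPM (SD, n = 2), and the labelled group accounted for 64% of the variation, or 68.9% without the library labelled Ctrl replicate 4. The log2 fold change with all libraries was -0.60 ± 0.19 (edgeR quasi-likelihood test, Benjamini-Hochberg adjusted p = 0.557). In the fit of 5 libraries it was -0.66 ± 0.19 (same edgeR test, adjusted p = 0.0998). Both fits passed before adjustment and neither did after it. DESeq2's Wald test gave adjusted p = 0.138 and, without that library, adjusted p = 0.0103. Leaving out LSD1skm-/- replicate 2 gave -0.46, which did not pass before adjustment in edgeR's test. *Jun* was the 1 member of the 9 with groups that did not overlap, against 17.8% of all tested genes, and 8.02% had both LSD1skm-/- libraries below. Without the library labelled Ctrl replicate 4 it was again this member, and the backgrounds were 37.7% and 17.3%. Endothelial markers also lay lower in LSD1skm-/-, with sums of 262 and 266 CPM against 298 to 375 in Ctrl, and blood markers higher, at 65.9 to 69.6 CPM against 30.3 to 55.6. Satellite cell markers summed to 85.6 and 88.7 CPM in LSD1skm-/- against 57.6 to 77.8 in Ctrl. Fibroblast markers summed to 706 and 835 CPM, above Ctrl replicates 1 to 3 and overlapping the library labelled Ctrl replicate 4. The part of these cells in the level of *Jun* was not tested. *Jun* overlaps the antisense gene *Junos*, and 5.83% of its 50-base stretches occur there as well.

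*Junb*, a Jun relative that is a weaker activator, stayed within 5.65 to 8.07 CPM over the 6 libraries. Ctrl held both ends of that range, and the log2 fold change was -0.03 ± 0.18. *Junb* overlaps the gene *Prdx2* on the other strand, and 5.76% of its 50-base stretches occur there as well. *Ier2*, a small nuclear protein induced by growth factors, was the steadiest member, at 4.47 to 5.68 CPM, with its highest library 1.27 times its lowest. Its log2 fold change was -0.15 ± 0.15. Neither gene passed before adjustment in any of the fits that were run.

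*Nr4a1*, the nuclear receptor also called Nur77, had 231, 127, 215 and 265 CPM in Ctrl replicates 1 to 4 and 280 and 219 CPM in LSD1skm-/-. Ctrl replicate 2 stood below all the others, and the groups overlapped. The log2 fold change was 0.25 ± 0.27 (edgeR quasi-likelihood test, Benjamini-Hochberg adjusted p = 0.767). *Myc*, which drives ribosome and growth genes, had 10.4, 4.34, 9.25 and 8.71 CPM in Ctrl replicates 1 to 4 and 5.73 and 4.17 CPM in LSD1skm-/-. Ctrl replicate 2 lay with the LSD1skm-/- libraries and the other 3 Ctrl libraries above them. The log2 fold change of *Myc* was -0.73 ± 0.34 (edgeR quasi-likelihood test, Benjamini-Hochberg adjusted p = 0.559). It did not pass before adjustment, but with Ctrl replicate 2 left out it was -0.93 and passed. *Maff*, the small Maf protein, had 3.76, 2.50, 4.67 and 2.74 CPM in Ctrl replicates 1 to 4 and 3.88 and 4.36 CPM in LSD1skm-/-. Ctrl replicates 2 and 4, where *Fos* was highest, were its lowest libraries, and its log2 fold change was 0.27 ± 0.27. Ctrl replicate 2 therefore had a high *Fos*, *Egr1* and *Atf3* beside the lowest *Nr4a1* and *Maff* of all 6 libraries.

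Of the 9 tested members, 2 passed the threshold of 0.05 before adjustment in edgeR's test, *Jun* and *Atf3*, both lower in LSD1skm-/-. Over all tested genes 8.9% passed, 3.88% in the lower direction. After Benjamini-Hochberg adjustment 0 members passed, and 0% of all genes did. Without the library labelled Ctrl replicate 4 the count before adjustment was 2 again, the same genes, beside a background of 20.2%, with 7.72% lower. After adjustment it was 0 members in that fit, beside 5.39% of genes. DESeq2 called 2 members before adjustment with all libraries, *Jun* and *Myc*, beside 9.73% of genes, and none after adjustment, beside 0.405%. Without that library DESeq2 called 1 member, *Jun*, before adjustment, beside 19.4%, and the same member after it, beside 9.29%. With 9 members, 1 gene is 11.1% of them. The fold changes of 7 of 9 members were below 0, beside 51.4% of all genes, and without the library labelled Ctrl replicate 4 it was 7 of 9 again, beside 51%. With all libraries *Junb* among these was at -0.03 ± 0.18 and *Ier2* at -0.15 ± 0.15. *Fos* and *Egr1* had an SE larger than the size of their fold change. The median of the 9 tested members was -0.60, and -0.31 in the fit of 5 libraries, against -0.008 and -0.006 over all tested genes.

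**Figure D2:**
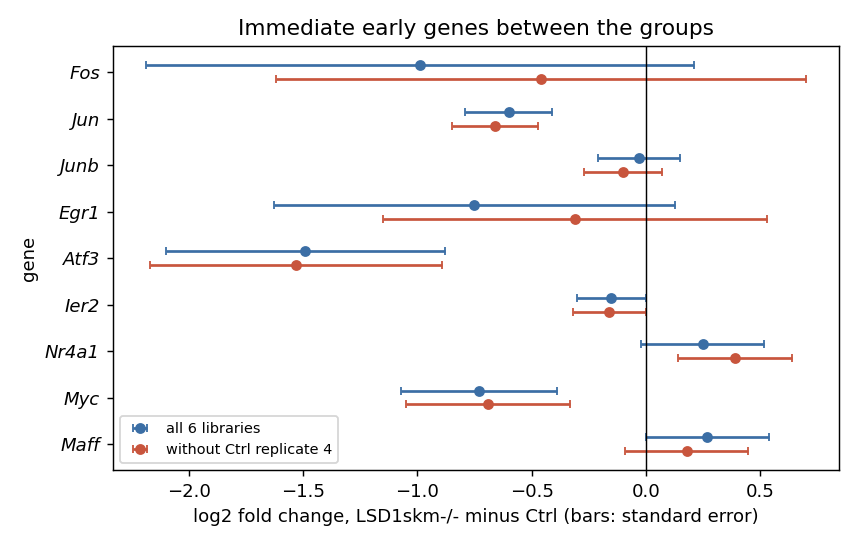
Fitted log2 fold change (LSD1skm-/- minus Ctrl) of the 9 tested immediate early genes, with all 6 libraries in blue and without the library labelled Ctrl replicate 4 in red, bars being the standard error. *Jun* and *Atf3* lie furthest from 0 for their error, at -0.60 ± 0.19 and -1.49 ± 0.61, while the bars of *Fos* and *Egr1* are wider than their fold change.

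The spread between libraries of 1 group was set against that of other genes at the same level, as edgeR's biological coefficient of variation (the SD as a share of the mean beyond counting noise) over its trend. *Fos* was at 5.48 times the trend, more than nearly every tested gene. *Egr1* was at 3.74 times the trend, percentile 99.7, and *Atf3* at 3.02 times, percentile 99.5. *Nr4a1* followed at 1.54 times and *Myc* at 1.36, whereas *Ier2* was at 0.666 times, percentile 2.11. In all, 4 of 9 members exceeded 1.5 times the trend, as did 5.28% of all tested genes. So did 12 of 19 contraction and exercise genes (63.2%) and 12 of 46 genes of a wider immediate early list (26.1%). *Nr4a3*, *Rcan1*, *Sik1* and *Rrad* are on both lists and counted in both. Among 14 heat shock genes it was 3 (21.4%). The group comparisons of these lists follow. Leaving out the library labelled Ctrl replicate 4 gave 5 members, and leaving out Ctrl replicate 2 gave 3.

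**Figure D3:**
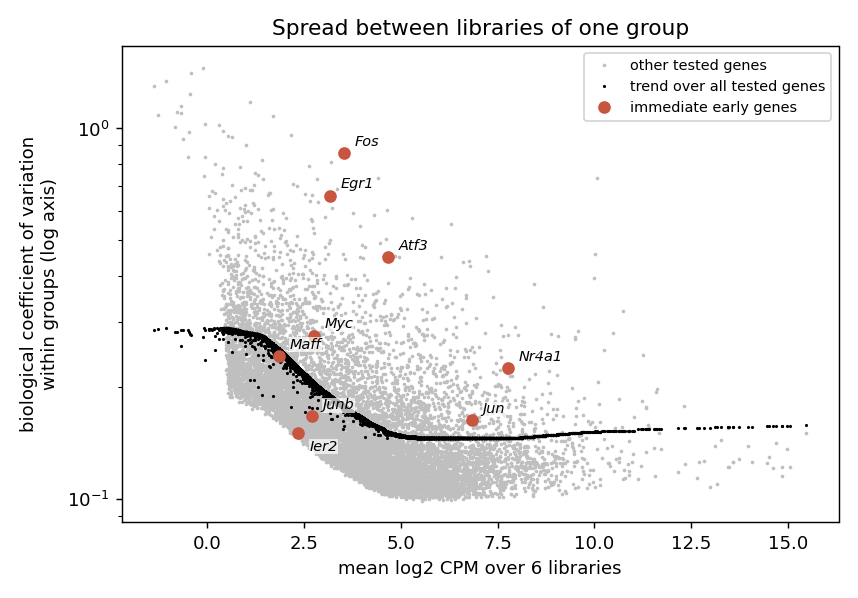
Biological coefficient of variation within groups (log axis) against mean log2 CPM for the 11364 tested genes in grey, their trend in black, and the 9 tested immediate early genes in red. *Fos*, *Egr1* and *Atf3* stand at 5.48, 3.74 and 3.02 times the trend, while *Junb* and *Ier2* lie below it.

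The members did not share 1 order of the libraries. *Fos* and *Egr1* had the same 3 highest libraries, Ctrl replicates 2 and 4 and LSD1skm-/- replicate 1, a set that includes libraries of both labels and that 3.52% of all tested genes share. *Jun*, *Myc* and *Ier2* had Ctrl replicates 1, 3 and 4 as their highest, and *Maff* had Ctrl replicate 3 and both LSD1skm-/- libraries. After removal of each group's mean, *Fos* deviated in log2 CPM by -1.93, 1.62, -1.47 and 1.77 in Ctrl replicates 1 to 4, whereas the median deviation of the members was between -0.08 and 0.09 there. In LSD1skm-/- that median was 0.18 and -0.18, beside 1.52 and -1.52 for *Fos*.

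Levels between members were compared per kilobase of exon. The median over libraries was 64.1 CPM per kb for *Nr4a1*, 35.3 for *Jun*, 12.6 for *Atf3* and 5.87 for *Fos*. *Ier2* (3.33 CPM per kb), *Junb* (2.73), *Myc* (2.66), *Egr1* (1.93) and *Maff* (1.47) came next, and *Fosb* was lowest at 0.0824. The order of *Nr4a1* and *Jun* held in every library, with ranges of 36.1 to 79.9 and 24.5 to 51.6 CPM per kb that overlapped between libraries. *Fos* ranged from 1.15 to 20.4 CPM per kb, so it was below *Ier2* in its low libraries and above it in its high ones, and *Junb*, *Myc* and *Egr1* overlapped in range as well.

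Heat shock genes were set beside the members, since they too respond to handling and activity. *Dnajb1*, an Hsp40 cochaperone, had 6.54, 32.4, 7.33 and 33.0 CPM in Ctrl replicates 1 to 4 and 19.4 and 6.27 CPM in LSD1skm-/-. *Hspa1a*, the inducible Hsp70, had 4.89, 49.8, 9.83 and 26.4 CPM in Ctrl and 12.9 and 2.42 CPM in LSD1skm-/-. *Hspa1b*, its near copy, had 3.33, 50.6, 5.94 and 25.3 CPM in Ctrl and 12.6 and 1.89 CPM in LSD1skm-/-. These genes were high in the same 3 libraries as *Fos* and *Egr1* and overlapped between the labelled groups. *Hspa1a* and *Hspa1b* share 66.3% and 62.3% of their 50-base stretches with other transcripts, mostly each other's, so their separate values are uncertain. Of the 14 heat shock genes, all tested, 5 had those 3 libraries as their highest (35.7%), beside 3.52% of all tested genes. For 2 of the 14 the labelled groups did not overlap, beside 17.8% of all genes. *Hspb1* was among these, lower in LSD1skm-/- at a log2 fold change of -0.45 ± 0.21. In edgeR's test 0 of the 14 passed between the labelled groups before adjustment, against 8.9% of all genes. In the fit of 5 libraries it was 0 as well, against 20.2%. In DESeq2 1 passed with all libraries. *Hspa8*, the constitutive Hsp70, ranged from 161 to 209 CPM, 1.3-fold. Among all tested genes 271 (2.38%) had a range above 4-fold, and 3.52% had those same 3 highest libraries. Genes with both numbered 9: *Fos*, *Egr1*, *Dnajb1*, *Hspa1a*, *Hspa1b*, *Ndufs5*, *Nim1k*, *Nmrk2* and *Gm47283*. That set was looked for after the *Fos* values had been seen. None of the summed marker lists used for cell types had those 3 libraries as its highest. What set these libraries apart was not tested.

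**Figure D4:**
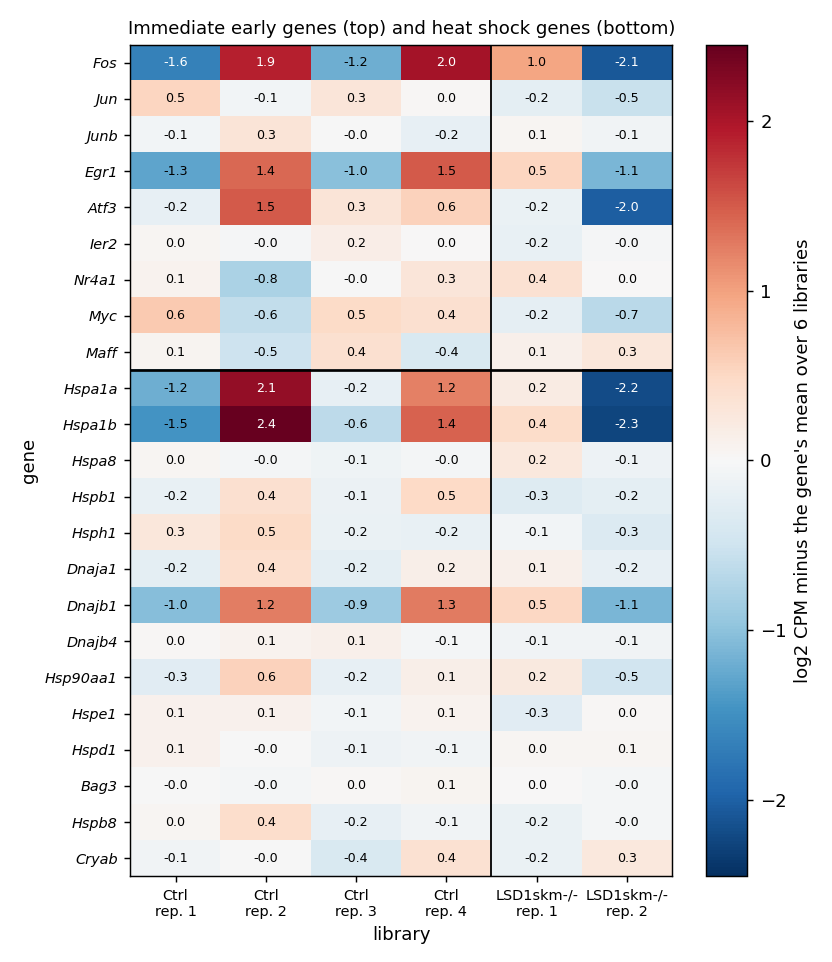
Deviation of log2 CPM from each gene's mean over the 6 libraries, in log2 units as colour and number, for the 9 tested immediate early genes above the line and 14 heat shock genes below it, with Ctrl left and LSD1skm-/- right of the vertical line. *Fos*, *Egr1*, *Hspa1a*, *Hspa1b* and *Dnajb1* are red in Ctrl replicates 2 and 4 and LSD1skm-/- replicate 1, and most other heat shock genes are pale throughout.

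The 5 tested genes whose level followed the mean profile of the members most closely over the 6 libraries were *Nrp1*, *Gm42790* and *Zscan26* (Pearson r = 0.986 each), *Ebf1* and *Rnf213* (0.982 each). Their own range was 1.49-fold to 2.25-fold. That profile was 0.47 in the library labelled Ctrl replicate 4 and -0.69 in LSD1skm-/- replicate 2, in centred log2 CPM, and rests mostly on *Fos*, *Egr1* and *Atf3*. With 6 libraries and 11364 genes such values are a description.

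A wider list of 57 further immediate early genes had 56 rows, of which 46 were tested. Before adjustment 4 of them passed in edgeR's test, 1 higher and 3 lower in LSD1skm-/-, which is 8.7% beside the 8.9% of all genes. *Klf10*, a zinc finger factor induced early by TGF-beta, had 17.3 to 26.1 CPM in Ctrl and 15.6 and 8.64 CPM in LSD1skm-/-, log2 fold change -0.91 ± 0.26. *Btg2*, an antiproliferative gene, had 30.2 to 43.9 CPM in Ctrl and 25.3 and 20.2 CPM in LSD1skm-/-, log2 fold change -0.61 ± 0.18. For both, the groups did not overlap. *Ier5* was -0.34 ± 0.13 on that scale, and *Gadd45b*, a stress gene, 0.65 ± 0.24. After Benjamini-Hochberg adjustment 0 of the 46 passed.

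Without the library labelled Ctrl replicate 4, 9 of the 46 passed before adjustment, 4 of them higher, beside 20.2% of all genes. *Gadd45b* and its relative *Gadd45g* were then past the adjusted threshold. *Gadd45b* had 22.8 to 27.3 CPM in Ctrl replicates 1 to 3, 42.8 in the library labelled Ctrl replicate 4 and 43.2 and 48.3 in LSD1skm-/-. Its log2 fold change without that library was 0.89 ± 0.12 (edgeR quasi-likelihood test, Benjamini-Hochberg adjusted p = 0.00676). *Gadd45g* had 79.6 to 104 CPM in Ctrl replicates 1 to 3, 171 in the library labelled Ctrl replicate 4 and 154 and 159 in LSD1skm-/-. Its log2 fold change was 0.83 ± 0.14 (same test and adjustment, adjusted p = 0.0157). For both genes the library labelled Ctrl replicate 4 lay with LSD1skm-/-, unlike for *Jun*.

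The kinases and factors that switch immediate early genes on were measured too. Of 34 tested, 5 passed before adjustment with all libraries, 1 higher and 4 lower, which is 14.7% beside 8.9%. In the fit of 5 libraries 8 passed, 23.5% beside 20.2%. *Map2k6*, the kinase that activates p38, had 35.3 to 43.3 CPM in Ctrl replicates 1 to 3, 73.3 in the library labelled Ctrl replicate 4 and 73.8 and 90.7 in LSD1skm-/-. Its log2 fold change was 0.79 ± 0.28, and 1.08 ± 0.13 without that library (edgeR quasi-likelihood test, Benjamini-Hochberg adjusted p = 0.00515). *Rps6ka3*, a kinase that phosphorylates CREB, was -0.43 ± 0.16, and -0.53 ± 0.11 without that library (same test and adjustment, adjusted p = 0.0407). *Elk4*, a partner of serum response factor, was -0.29 ± 0.12. *Srf* itself, the serum response factor, had 67.9 to 89.6 CPM in Ctrl and 78.1 and 86.3 CPM in LSD1skm-/-, and *Creb1* 15.7 to 21.2 and 20.1 and 15.2 CPM, so both overlapped.

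Among 18 tested dimer partners and corepressors of the members, 1 passed before adjustment, *Nab1*, which restrains Egr proteins, or 5.56% beside 8.9% of all genes. In the fit of 5 libraries 4 passed, 22.2% beside 20.2%. *Nab1* had 8.87 to 14.6 CPM in Ctrl and 18.1 and 18.4 CPM in LSD1skm-/-, with no overlap. Its log2 fold change was 0.69 ± 0.20, and 0.84 ± 0.15 without the library labelled Ctrl replicate 4 (edgeR quasi-likelihood test, Benjamini-Hochberg adjusted p = 0.0228). Of 8 tested targets of AP-1, 1 passed with all libraries (12.5% beside 8.9%) and 2 in the fit of 5 (25% beside 20.2%). With all libraries it was *Hmox1*, a heme-degrading enzyme, at 9.57 to 11.5 CPM in Ctrl and 20.8 and 16.4 CPM in LSD1skm-/-. Its log2 fold change was 0.80 ± 0.14, and 0.84 ± 0.14 without that library (same test and adjustment, adjusted p = 0.017). Of 15 tested targets of Myc, 1 passed before adjustment in each edgeR fit, *Odc1*, the first enzyme of polyamine synthesis. That is 6.67%, beside 8.9% with all libraries and 20.2% in the fit of 5. *Odc1* had 99.7 to 130 CPM in Ctrl replicates 1 to 3, 52.4 in the library labelled Ctrl replicate 4 and 38.2 and 34.7 in LSD1skm-/-, log2 fold change -1.49 ± 0.35. Without that library it was -1.71 ± 0.15 (same test and adjustment, adjusted p = 0.00193). The other 14 Myc targets passed in neither edgeR fit, and the list's median was -0.11 with all libraries. In DESeq2 1 Myc target passed before adjustment with all libraries, beside 9.73% of genes. Without the library labelled Ctrl replicate 4 it was 2, beside 19.4%. After adjustment DESeq2 called 1 Myc target and 1 AP-1 target with all libraries, beside 0.405% of genes.

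19 genes known to respond to contraction or exercise were all tested, and 3 passed before adjustment in edgeR's test, all lower in LSD1skm-/-, which is 15.8% beside 8.9%. In the fit of 5 libraries 3 passed as well, beside 20.2%. *Csrp3*, a Z-disc protein induced by stretch, had 76.0 to 131 CPM in Ctrl and 38.9 and 56.9 CPM in LSD1skm-/-. *Lmcd1* had 102 to 112 CPM in Ctrl and 67.2 and 88.3 CPM in LSD1skm-/-. *Cish*, a target of cytokine signaling, had 28.4, 13.1 and 16.8 CPM in Ctrl replicates 1, 3 and 4, and its level in Ctrl replicate 2 was 10.9 times that in LSD1skm-/- replicate 2, its lowest library, at 9.17 CPM. None of the 3 passed after Benjamini-Hochberg adjustment in either edgeR fit. In DESeq2 0 of the 19 passed after adjustment with all libraries, beside 0.405% of genes. Without the library labelled Ctrl replicate 4 DESeq2 called 2 of them after adjustment, beside 9.29%. 2 of the 19 (10.5%) had the 3 highest libraries of *Fos*. So did 4 of 46 genes of the wider list (8.7%) and 3.52% of all tested genes. *Nr4a3*, a relative of *Nr4a1* on this and the wider list, ran from 11.5 to 32.4 CPM in Ctrl against 19.2 and 6.09 CPM in LSD1skm-/-.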

How the data were processed

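Raw read counts per gene, as deposited by the authors in 1 table, were analysed for 6 libraries (4 Ctrl, 2 LSD1skm-/-). Per the labels, poly(A) RNA was made into stranded libraries, and the submitters' processing notes name bcl2fastq 2.20.0.422, whereas the study's methods give an older version. Per those methods uniquely aligned single-end reads of 50 bases were counted on mm10 with htseq-count and HOMER named as tools. The aligner, annotation and strand setting are not given in the sources used here, so genes overlapping on the other strand are uncertain.

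Genes with a mean above 50 reads, the study's limit, were fitted with edgeR 4.0.16 (R 4.3.3), using TMM scaling and a two-sided quasi-likelihood test with Benjamini-Hochberg adjustment over all 11364 of them. log2 CPM used a prior count of 2. A planned comparison of 4 with 4 libraries became 4 with 2, because LSD1skm-/- replicates 3 and 4 were not analysed here. In fits without a library the tested genes stayed the same. No libraries repeated one another: their pairwise chi-square over genes was 32.9 to 127 per degree of freedom. The depth gives a limit of 3 reads, or 0.0686 to 0.0945 CPM, for a count of 0, and covers counting error only.

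The members and lists were chosen with earlier results of these data known. Named were all 10 members, *Kdm1a*, at most 3 genes of each list with the smallest p in either comparison, and the 5 genes most like the members' mean profile. Others (*Ptprc*, *Gadd45b* with all libraries, *Srf*, *Creb1*, *Nr4a3*, *Hspa8*, *Hspa1b*, *Dnajb1* and the genes sharing the libraries of *Fos*) were chosen after their values were seen. 1 withheld gene is not reported here. 4 older symbols were replaced by the names in the table. Alternatives were DESeq2 1.42.0, limma-voom (limma 3.58.1), other scalings, other filters, a replicate block and leaving out each library. The fit was tested on simulated counts with 200 genes changed 2-fold, drawn at the trend of variation. After adjustment it recovered 131 with all libraries, with 3 false calls. Without the library labelled Ctrl replicate 4 it recovered 172, with 6 false calls. Each run took its variation from the libraries in that fit, so these counts do not rank the fits. Genes that vary more than the trend, such as *Fos*, were not covered by this simulation. Promoters came from RefSeq on GRCm38.p6, and exon lengths, gene overlaps and shared 50-base stretches from GENCODE on GRCm38.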

Additional observations from a re-analysis of the deposited data

Results flagged for a closer look

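In groups of 4 libraries the gap of the highest or lowest library to its neighbour, over the whole range, was checked against Dixon's limit, which chance passes in about 1 of 20 groups. It was passed in 2 of 27 values checked, both by the library labelled Ctrl replicate 4. The log2 CPM of *Kdm1a* in Ctrl had a gap of 0.88 of the range, with that library lowest. The log2 summed CPM of the fibroblast markers in Ctrl had a gap of 0.83, with that library highest. None of the immediate early genes was past the limit, *Fos* and *Egr1* included, since in both a pair of Ctrl libraries was high.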

How the results depend on the processing

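Of 135 fold changes of members over all settings, 122 kept their direction and their side of the unadjusted threshold of 0.05, 3 reversed, 6 no longer passed and 4 newly passed. The 3 were those of *Junb*, near 0 throughout: 0.01 with library size scaling, and -0.10 to 0.08 when 1 library was left out, with 0.08 without Ctrl replicate 2 and 0.03 without LSD1skm-/- replicate 2. The 2 members past that threshold became 1 with library size scaling, 1 with DESeq2 without Ctrl replicate 4 and 0 after adjustment, and between 0 and 2 when 1 library was left out, 0 being without LSD1skm-/- replicate 2. The members' median ranged from -0.76 to -0.15 when 1 library was left out, the latter without LSD1skm-/- replicate 2. The members over 1.5 times the trend were 3 to 5 in those fits, an alternative added after seeing the data.

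The wider list's 4 genes became 11 with no filter beyond 1 count (27041 genes tested), 12 with DESeq2 without Ctrl replicate 4, and 3 to 9 when 1 library was left out. The 1011 of all tested genes became 2189 with no filter beyond 1 count, 2203 with DESeq2 without Ctrl replicate 4, and 391 to 2292 when 1 library was left out, lowest without LSD1skm-/- replicate 2, 586 without Ctrl replicate 1 and highest without Ctrl replicate 4. The causes were not tested.

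Replicate numbers 1 and 2 occur in both groups. With the replicate number as a block 3 of 9 members, 12 of 46 genes of the wider list and 1677 of all 11364 tested genes passed. *Nr4a1* was then past the threshold (log2 fold change 0.53, edgeR's test before adjustment). Deviations of same-numbered libraries from their group means correlated at r = -0.23 and -0.03 over genes. The crossed pairs gave 0.23 and 0.03, because the deviations of the 2 LSD1skm-/- libraries mirror each other. These values therefore cannot tell whether same-numbered libraries belong together. With 2 LSD1skm-/- libraries the limit is the spread between libraries: the log2 fold change of *Fos* had an SE of 1.2, and ranged from -3.21 to -0.15 when 1 library was left out without passing in any of these fits.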
